A study of Xenopus laevis with 115 samples.

Results

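The transcripts described here are the 150 that were lowest in endoderm of Xenopus laevis neurulae treated with the inhibitor SGC-CBP30 (CBP30), relative to endoderm of embryos kept in its solvent DMSO, among those lower in each of 3 experiments. They were chosen from 72076 target sequences in the abundance tables of the CBP30 experiments. Counts of each donor library were scaled to a common sum of 1000000 (CPM) over the 70027 targets that carry an XBmRNA identifier and lie outside the block XBmRNA22077 to XBmRNA22091, and the mean of log2(CPM + 0.5) in DMSO was subtracted from that in CBP30 within each experiment. A transcript qualified with a mean of at least 2 CPM over the DMSO donor libraries and a difference below -0.3 in every experiment. Of the 19244 transcripts at that DMSO level, 1192 (6.19%) qualified, and the 150 with the lowest mean difference are the members. The same values therefore chose the members, and their difference between CBP30 and DMSO endoderm is given below as a description with no test.

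The study asked whether blocking the coactivators p300 and CBP in donor cells changes how nuclei are reprogrammed by nuclear transfer (NT), the making of an embryo from an egg and the nucleus of a differentiated cell. All animals were wild type by their labels. Embryos from in vitro fertilisation (IVF) were kept in 40 µM SGC-CBP30, in DMSO, in 30 µM A-485 (A485) or in A486 from NF stage 12 to NF stage 18, and NF stages are the numbered stages of Xenopus development. A486 is known as the inactive companion compound of A-485, but the records give neither its dose nor a description of it. Donor endoderm was dissected at stage 18, and ectoderm was taken at stage 11 from NT embryos made with treated or control donor cells and from IVF embryos that were not treated. The CBP30 set holds 6 DMSO and 5 CBP30 donor libraries, 12 DMSO NT and 11 CBP30 NT libraries, and 11 IVF libraries. The A485 set holds 6 donor libraries of each compound, 11 A485 NT and 13 A486 NT libraries, and 4 IVF libraries of experiment 1. The labels do not say that the libraries of a group came from separate clutches or cultures, so a p-value measures only the spread between these libraries.

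The p300 and CBP proteins are large coactivators that are brought to enhancers and promoters by transcription factors, acetylate histone tails there and bind acetylated lysines through a bromodomain. SGC-CBP30 occupies that bromodomain, whereas A-485 competes with acetyl-CoA at the acetyltransferase domain, so the compounds block different parts of the same proteins. In Xenopus the vegetal cells of the embryo form endoderm under nodal and VegT control, and at the neurula stage the endoderm is a yolk-rich mass that will give the gut, the liver and the pancreas. Animal cap ectoderm of the gastrula, in contrast, is set to form epidermis and neural tissue. The tables name targets by identifier only, and the gene table at hand pairs none of these identifiers with a symbol, so the members are named by identifier, no function is given for any of them and no marker gene of a tissue could be looked up by name.

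Total estimated counts ran from 10352221 to 24923622 per library in the CBP30 set and from 6468976 to 24820727 in the A485 set. The single CBP30 donor library of experiment 3 stood apart from the others. Targets outside the scaling set, which the rule leaves out of the sums, took 44.3% of its counts, against at most 3.89% in the other donor libraries of the CBP30 set. The difference in experiment 3 rests on this library alone. In experiments 1 and 2 alone 2370 transcripts met the limits. The 150 members are among them by the rule itself, so this does not show whether they would rank lowest without experiment 3. In the A485 set the donors of experiment 1 are labelled as endoderm by tissue but as ectoderm by cell type, and the tissue field of 2 libraries of experiment 3 contradicts their title.

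Many members were low in CBP30 endoderm, with means over its 5 libraries from 0 to 23.8 CPM, and their control levels differed widely between libraries. Over the 150 members, the mean DMSO level ran from 3.36 to 511 CPM with a median of 12.4 CPM, beside 12.5 CPM over all transcripts at the DMSO level of the rule. Between 36 and 71 members reached 1 CPM in a CBP30 library, and between 88 and 148 in a DMSO library. In bulk tissue, fewer cells that carry a transcript and less of it per cell cannot be told apart. The mean difference ran from -5.76 on the log2 scale (XBmRNA17485) to -1.998 (XBmRNA42746, the last one inside), and XBmRNA75098 lay just outside at -1.995. A further 190 transcripts had a mean difference as low but failed the limit in at least 1 experiment. The member nearest to that limit had a single difference of -0.31, and the nearest transcript outside it one of -0.298. In the other direction, 537 transcripts at the same DMSO level were more than 0.3 higher in CBP30 in all 3 experiments. The level limit uses DMSO alone and leaves out transcripts low there, so the counts of the directions are not compared.

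XBmRNA17485 had the lowest mean difference. In DMSO endoderm it stood at 23.3 and 40.1 CPM in experiment 1, at 0.108 and 244 CPM in experiment 2 and at 15.0 and 405 CPM in experiment 3. In CBP30 endoderm it stood at 0.286, 0.0723, 0.126, 0 and 0 CPM, which is 6 estimated reads over the 5 libraries. All but 1 of the DMSO libraries were far above every CBP30 library, and the first DMSO library of experiment 2 was as low as the treated ones. In stage 11 ectoderm it was near 0, with 0.10 ± 0.10 CPM (SD, n = 11) in IVF and 0.19 ± 0.22 CPM (SD, n = 12) in DMSO NT embryos. The A485 tables used here do not list it.

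XBmRNA60206 (gene XBXL10_1g31898), second lowest, repeated this pattern in the donors. In IVF ectoderm of the CBP30 set its mean was 0.80 CPM. Its DMSO levels were 7.52 and 9.53 CPM in experiment 1, 0 and 73.9 CPM in experiment 2 and 2.36 and 110 CPM in experiment 3, and its CBP30 levels ran from 0 to 0.144 CPM, 4 estimated reads in all. The second DMSO library was the higher one in every experiment. It is present in the A485 set, where the A486 donors held 2.30 and 0.0525 CPM in experiment 1, 96.4 and 47.0 CPM in experiment 2 and 5.43 and 0.167 CPM in experiment 3. The A485 donors held 15.1 and 0, 13.2 and 2.27, and 1.53 and 18.4 CPM. The groups overlapped, and edgeR's quasi-likelihood test gave a log2 fold change of -1.57 (SE 1.33) with a Benjamini-Hochberg adjusted p of 0.970.

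**Figure D1:**
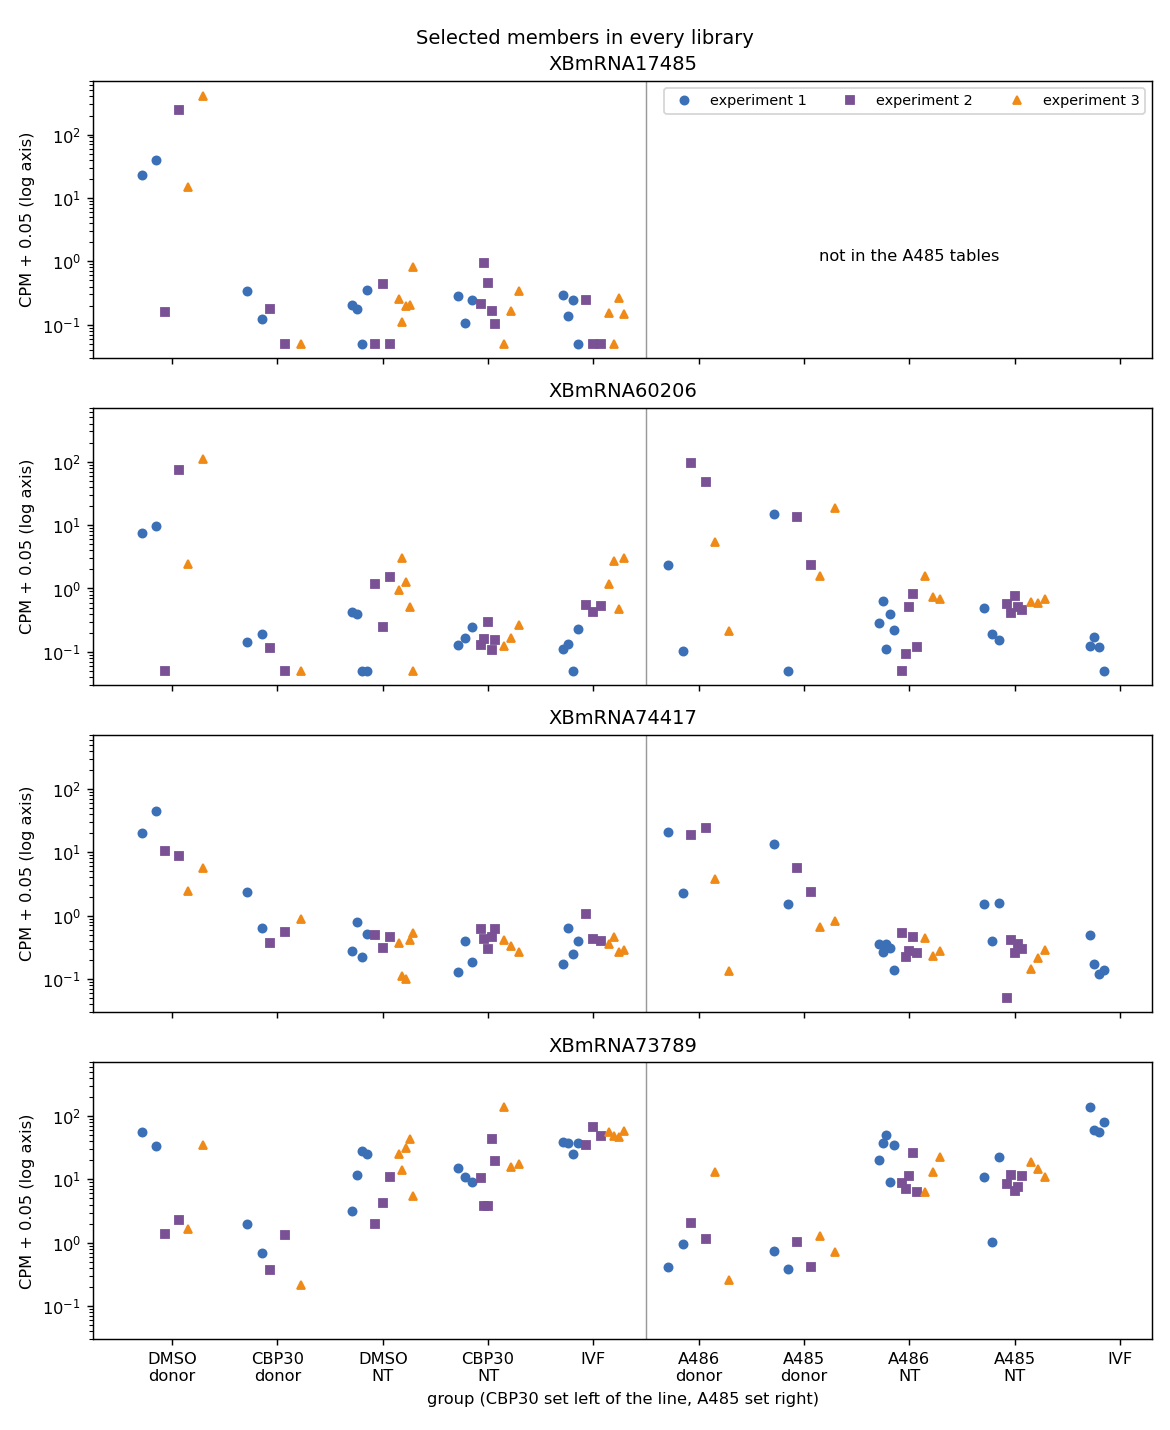
Level of 4 members in every library, as CPM + 0.05 on a log axis, by group (x axis), with the marker giving the experiment. The CBP30 donors lie at or near the low end of the DMSO donors, which spread over up to several powers of 10. XBmRNA73789 is high in ectoderm. The means in IVF ectoderm of the CBP30 set are 0.10 CPM for XBmRNA17485, 0.38 CPM for XBmRNA74417 and 0.80 CPM for XBmRNA60206.

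For many members the control donors of 1 experiment differed from each other. In experiment 3 the absolute difference between the 2 DMSO libraries had a median of 3.07 on the log2 scale over the members, against 0.31 over all transcripts at the DMSO level of the rule. In experiments 1 and 2 it was 0.74 and 0.90 over the members, against 0.42 and 0.26. The second DMSO library of experiment 3 was more than 1 log2 unit above the first for 122 members, and that of experiment 2 for 62. For 46 members the first DMSO library of experiment 2 was not 0.3 above the CBP30 mean, and for 37 members this was so of the first DMSO library of experiment 3. The highest DMSO value lay in the first library of experiment 1 for 53 members, in the second of experiment 1 for 46 and in the second of experiment 3 for 38.

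How far the CBP30 and DMSO donors were apart also differed by experiment. All CBP30 libraries lay below all DMSO libraries for 136 members in experiment 1, for 96 in experiment 2 and for 125 in experiment 3. Among all 19244 transcripts at the DMSO level of the rule, the shares so separated were 36%, 23.6% and 39.8%. Separation within each of the 3 experiments held for 68 members, against 4.13% of those transcripts, and separation of all 5 CBP30 from all 6 DMSO libraries for 19 members, against 0.66%. Since the rule used these libraries, nothing is read from the counts beside these shares.

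Of the 19 members whose CBP30 values all lay below all DMSO values, 4 are described here, chosen after their values were seen. XBmRNA74417 (XBXL10_1g39485) held 20.2 and 44.6, 10.5 and 8.56, and 2.43 and 5.56 CPM in the DMSO donors of experiments 1 to 3, and 2.28 and 0.578, 0.315 and 0.512, and 0.842 CPM in the CBP30 donors. The highest CBP30 value was close to the lowest DMSO value, in different experiments. XBmRNA48941 (XBXL10_1g26162) remained well detected under CBP30, with 84.6 and 71.0, 44.0 and 30.2, and 32.4 and 48.5 CPM in DMSO and 10.2 and 25.2, 5.43 and 13.3, and 2.53 CPM in CBP30. XBmRNA60704 (XBXL10_1g32214) had differences of -2.37, -2.95 and -2.67. Its mean was 4.33 CPM in the DMSO and 0.13 CPM in the CBP30 donors. The CBP30 mean is below the 0.5 CPM added before the logarithm, so these differences mainly restate the DMSO level. XBmRNA7557 (XBXL10_1g4107) was at 0 in every CBP30 library, with DMSO values from 0.054 to 22.1 CPM, and it is 1 of 7 members with no read in any CBP30 donor.

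The members did not share 1 profile over the experiments. Their median difference was -3.64 in experiment 1, -1.26 in experiment 2 and -2.66 in experiment 3, beside -0.22, -0.003 and -0.06 over all transcripts at the DMSO level of the rule. The difference was below -1 for 147, 82 and 145 members in experiments 1, 2 and 3, below -1 in all 3 for 77 and below -2 in all 3 for 15. It was smallest in experiment 2 for 100 members. Yet 39 members were lower in experiment 2 than in experiment 1. The most uneven of them, XBmRNA26692 (XBXL10_1g14156, singled out after its values were seen), had differences of -0.56, -5.43 and -0.39. It stood at 32.3 and 24.4 CPM in the DMSO donors of experiment 2 and at 0.25 and 0.09 CPM in the CBP30 donors of that experiment, whereas the DMSO donors of experiments 1 and 3 held from 0.26 to 2.98 CPM.

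**Figure D2:**
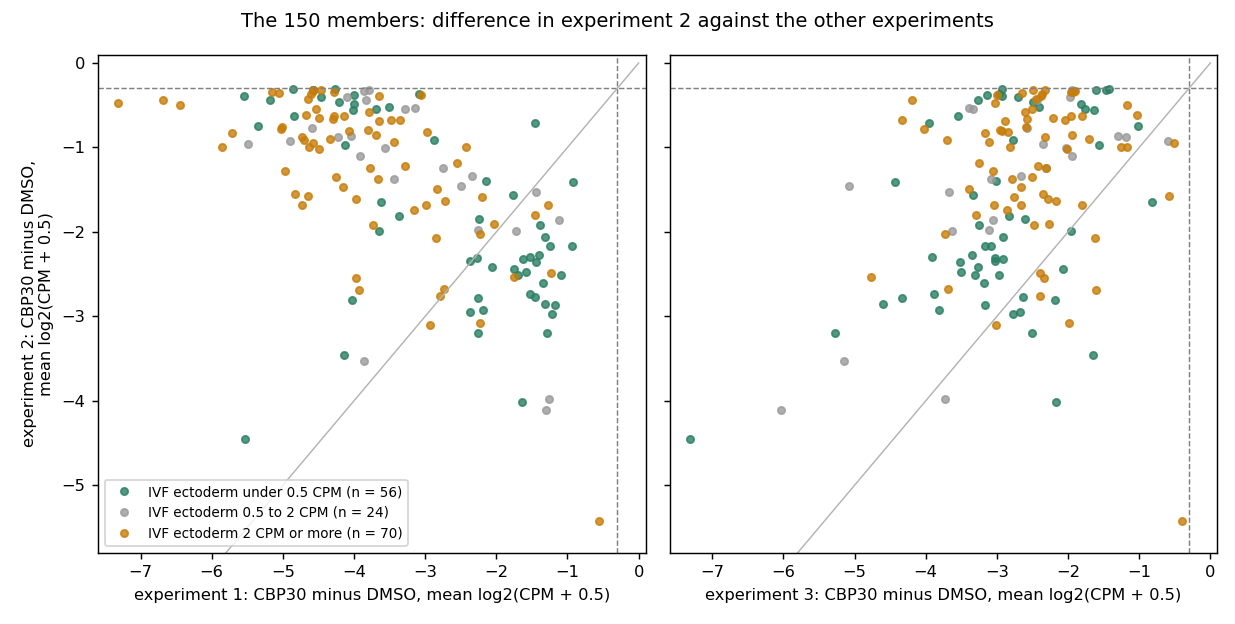
Difference of each of the 150 members in experiment 2 (y axis) against experiment 1 (left) and experiment 3 (right), in mean log2(CPM + 0.5), CBP30 minus DMSO. Dashed lines mark the limit of -0.3 and the grey line equal differences. Members absent from IVF ectoderm (under 0.5 CPM, 56 members) include 27 below the grey line at left, and those at 2 CPM or more (70 members) include 7.

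The level in stage 11 IVF ectoderm, which the rule did not use, divides the members. It was under 0.5 CPM, as a mean over the 11 IVF libraries of the CBP30 set, for 56 members (37.3%), between 0.5 and 2 CPM for 24 (16%) and at least 2 CPM for 70 (46.7%). Among all transcripts at the DMSO level of the rule, the shares of these classes were 8.02%, 8.45% and 83.5%. The class limits were set after values had been seen, and the shares are a description. The 56 members nearly absent from ectoderm had median differences of -2.25, -2.11 and -2.95 in experiments 1, 2 and 3, and 54, 37 and 55 of them were below -1. Their mean differences were -2.75, -1.83 and -2.93. The 70 members present in ectoderm had -3.98, -0.97 and -2.47, with most of the difference in experiments 1 and 3. Of the 39 members lower in experiment 2 than in experiment 1, 27 belonged to the first class, 5 to the middle class and 7 to the last.

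**Figure D3:**
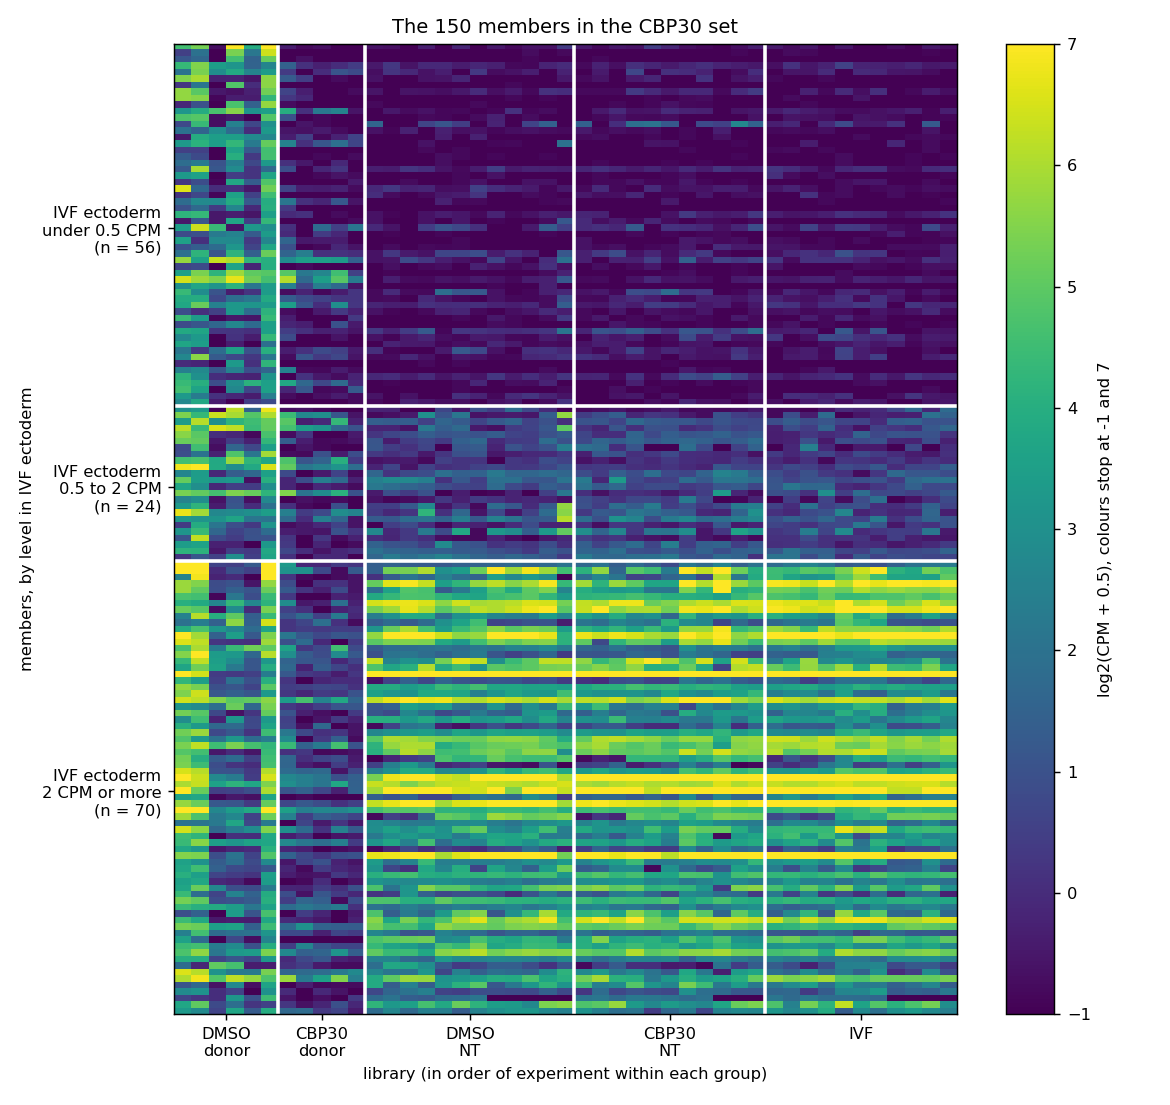
Log2(CPM + 0.5) of the 150 members (rows, by class of level in IVF ectoderm, then by mean difference) in the 45 libraries of the CBP30 set (columns). The 56 members at the top are dark in all ectoderm libraries and in most CBP30 donors, and the 70 at the bottom are bright in ectoderm and in the first, second and last DMSO donor columns.

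Transcripts high in IVF ectoderm were also unequal between the donors. To describe them, a list was taken from experiment 1 of the A485 set. The groups behind it differ in stage and treatment as well as in tissue, and these cannot be told apart. It holds 1061 transcripts at an edgeR adjusted p under 0.05. All were lower in A486 endoderm than in IVF ectoderm by at least 3 on the log2 scale. Of these, 14 are members and were left out, and 977 others are in the CBP30 tables. Their summed level was 1.77% and 1.65% of the scaled counts in the DMSO donors of experiment 1 and 1.28% in the second DMSO donor of experiment 3. In the other DMSO donors it ran from 0.09% to 0.12%, and in the 5 CBP30 donors from 0.09% to 0.13%. In the 3 DMSO libraries with the high sums, the mean log2(CPM + 0.5) of the 70 members present in ectoderm was 4.72, 4.71 and 4.37, and in the other 3 it was 1.45, 2.19 and 1.14. For the 56 members nearly absent from ectoderm it was 2.68, 3.10 and 3.93 in those with the high sums and 0.90, 2.58 and 1.12 in the others, so both classes were highest in the same libraries. The part of this ectoderm-high RNA in the members' difference was not tested. The reverse list, 1714 transcripts high in endoderm with 1550 used, summed to 9.62% and 6.92% in the DMSO donors of experiment 1 and to between 13.96% and 20.88% in the other donors of the CBP30 set.

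The values of experiment 2 are given beside these, since the sum of ectoderm-high RNA differed little there between the groups. The sum was 0.09% and 0.10% in DMSO and 0.09% and 0.12% in CBP30. There the 56 members nearly absent from ectoderm had a mean log2(CPM + 0.5) of 0.90 and 2.58 in the DMSO donors and of -0.23 and 0.04 in the CBP30 donors. The 70 members present in ectoderm had 1.45 and 2.19 in DMSO and 0.49 and 0.63 in CBP30. Both classes were separated in that experiment, by more for the first. In experiment 3 the DMSO donor without the high sum had 1.12 for the first class and 1.14 for the last, beside -0.40 and 0.27 in the CBP30 donor. The rule itself required a difference in each experiment, so these values describe the members and say nothing of a cause.

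XBmRNA73483 (XBXL10_1g38933), the member with the highest DMSO mean and therefore singled out, shows the uneven profile at its extreme. It stood at 1761 and 1035 CPM in the DMSO donors of experiment 1, at 0.487 and 1.45 CPM in those of experiment 2 and at 0.959 and 269 CPM in those of experiment 3. The CBP30 donors held 8.16 and 7.76, 1.20 and 0.0853, and 1.94 CPM. It was at 45.9 CPM in IVF ectoderm of the same set. In the A486 donors it stood at 479 CPM in the first library of experiment 3 and from 0.79 to 3.43 CPM in the other 5, and that library was also the only A486 or A485 donor with a high sum of the ectoderm-high list, 0.98% against 0.12% to 0.20%.

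**Figure D4:**
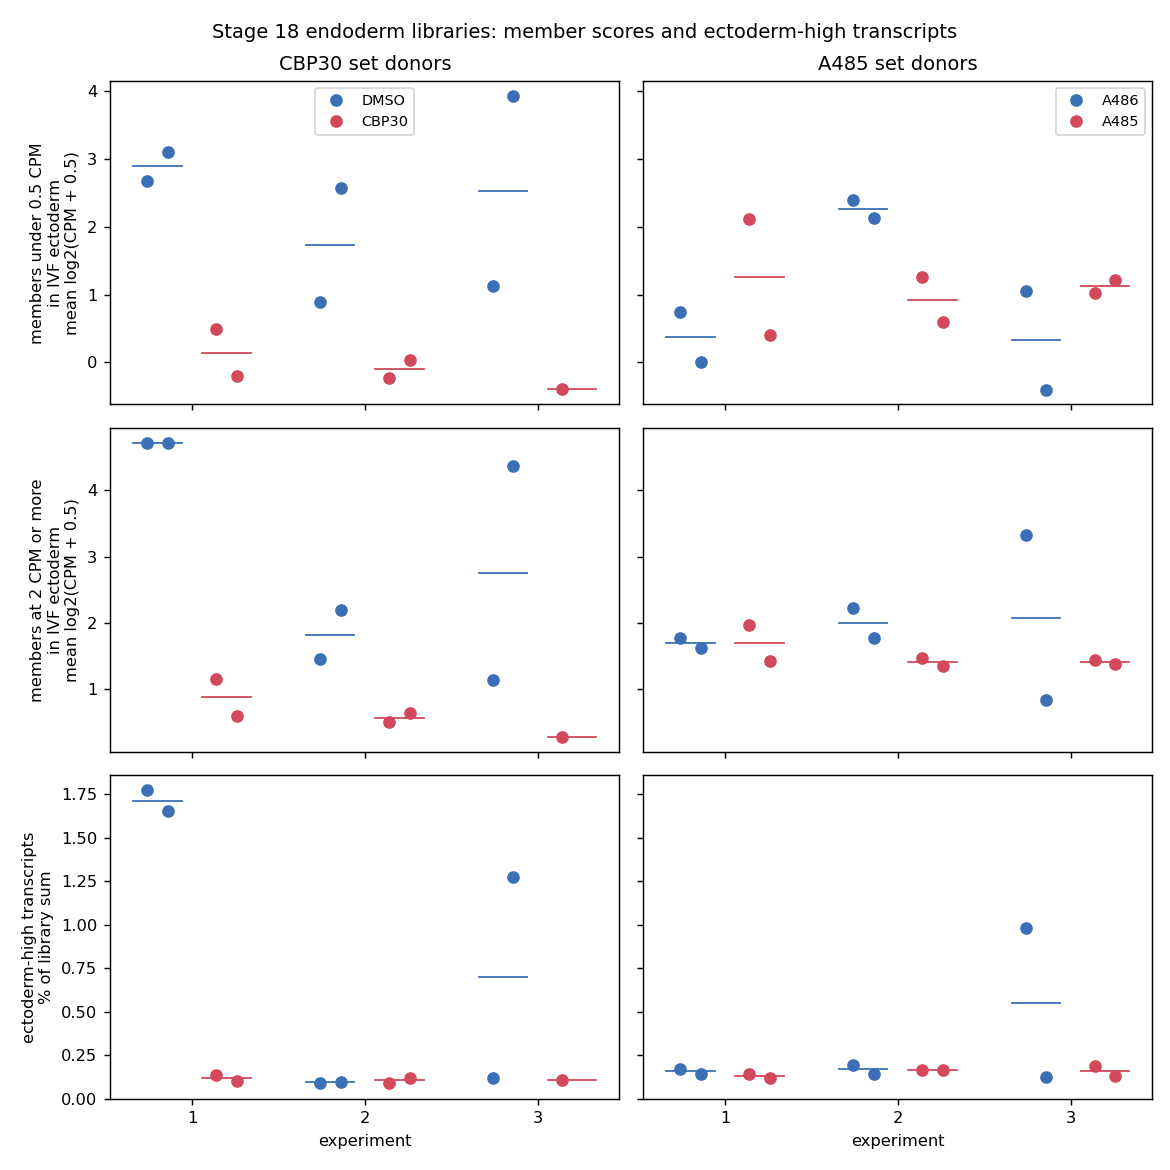
Mean log2(CPM + 0.5) of the members under 0.5 CPM (top) and at 2 CPM or more (middle) in IVF ectoderm, and summed share of the ectoderm-high list without members (bottom), in each donor library by experiment. Points are libraries and lines are means. The DMSO donors of experiment 1, the second of experiment 3 and 1 A486 donor of experiment 3 stand out at the bottom. At the top every CBP30 donor lies below every DMSO donor. In the middle the first CBP30 donor of experiment 1 (1.152) lies above the first DMSO donor of experiment 3 (1.135). The rule chose the members on these DMSO and CBP30 donors, so nothing is read from their separation.

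The A485 set shows the same members under the inhibitor of the other domain, in libraries that the rule did not use. The tables share 41837 target identifiers, and 91 members (60.7%) are among them, beside 57.0% of all transcripts at the DMSO level of the rule. Only 10 of the 91 have the same target length in both sets, so for most the counted sequence differs. No member was called between A485 and A486 donors at an adjusted p under 0.05 (edgeR, quasi-likelihood test, 79 members tested), and 0% of the 20220 transcripts tested were called. At an unadjusted p under 0.05, 11 members were lower and 0 were higher, and by DESeq2 0 members were called and 8 were lower at that unadjusted p. Over all transcripts, 2.14% were lower and 1.75% higher at an unadjusted p under 0.05. The log2 fold change was below 0 for 59 of the 79 members, against 51.8% of all transcripts tested, and its median was -0.62 against -0.01.

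The difference between A485 and A486 donors varied with the experiment. The median over the members tested was 0.20 within experiment 1, -0.94 within experiment 2 and -0.16 within experiment 3, with 29 of 65, 66 of 80 and 44 of 83 members below 0. Over all transcripts tested it was -0.01, -0.002 and 0.01. With the experiment as a block the members' median was -0.11, beside -0.009 over all transcripts, with 44 of 79 members below 0. Without the A486 library with the high ectoderm sum the members' median was -0.23, beside -0.006 over all transcripts. There 52 of 78 members were below 0 and 1 member had an unadjusted p under 0.05 (edgeR). The shares of all transcripts below 0 were not counted in these fits. The class nearly absent from ectoderm (35 members in both sets) had differences of both signs: its mean log2(CPM + 0.5) was 0.88 higher in A485 than in A486 donors in experiment 1, 1.34 lower in experiment 2 and 0.79 higher in experiment 3. The class present in ectoderm (38 members) differed by -0.0018, -0.59 and -0.67. Under the limits of the rule, 5 of the 64 members with at least 2 CPM in A486 donors (7.81%) were below -0.3 in all 3 A485 experiments. Of all 16206 transcripts at that level, 2.22% were so. Above 0.3 in all 3 were 0 members, against 0.86% of those transcripts. The level limit was set on the A486 donors alone, so nothing is read from the balance of the directions.

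Single members show how far the A486 donors were apart. XBmRNA74417 stood at 20.9 and 2.21, 19.0 and 23.7, and 3.79 and 0.0834 CPM in the A486 donors of experiments 1 to 3 and at 13.6 and 1.47, 5.63 and 2.27, and 0.612 and 0.784 CPM in the A485 donors. Both A486 values of experiment 2 lay above both A485 values, and in the other experiments the groups overlapped. XBmRNA48941 stood at 104 and 35.2, 59.2 and 54.7, and 10.5 and 7.01 CPM in A486 and at 107 and 47.0, 46.2 and 22.9, and 16.7 and 19.8 CPM in A485 donors. It was lower with A485 in experiment 2 and higher in experiment 3. CBP30 and A485 were used at different doses and in separate experiments with different controls, so their differences stand side by side here and were not compared.

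The members were also tested between the 2 A486 donors and the 4 IVF libraries of experiment 1. These groups differ in tissue, in stage (18 against 11) and in treatment, and the 3 cannot be told apart. Both donors are labelled as endoderm by tissue but as ectoderm by cell type. Of 61 members tested, 14 were higher and 24 lower in endoderm (edgeR, adjusted p under 0.05), against 24.6% higher and 23.4% lower of all 22089 transcripts tested. The 14 comprise 7 of the class nearly absent from ectoderm, where 10 were tested, and 7 of the middle class, whereas all 24 lower members belong to the class present in the ectoderm of the CBP30 set. The classes had been cut on IVF levels of the CBP30 set. Of the 35 members of the first class in the A485 tables, only 10 passed the expression filter. With so little RNA in ectoderm, they could pass it almost only through the endoderm libraries, so nothing is read from their direction. Likewise, lower members with little RNA in the A486 donors could pass it almost only through the IVF libraries. Nothing is read from their direction either. With all 6 A486 donors in place of 2, 25 of 69 members tested were higher and 17 lower. Over all 21557 transcripts tested in that fit, 6768 were higher and 6017 lower. The members' median log2 fold change went from -1.28 to 0.32.

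XBmRNA2811 (XBXL10_1g1583) and XBmRNA4798 (XBXL10_1g2731) had the lowest p among the members higher in endoderm. Both belong to the class nearly absent from ectoderm, so nothing is read from their direction or p. XBmRNA2811 stood at 15.8 and 12.3 CPM in the A486 donors. In IVF ectoderm of experiment 1 it stood at 0 to 0.0712 CPM, with 1 IVF library above 0. XBmRNA4798 stood at 22.5 and 13.1 CPM in the A486 donors against 0.17 ± 0.11 CPM (SD, n = 4) in IVF ectoderm. Under CBP30, XBmRNA4798 had differences of -2.24, -1.84 and -2.61 in experiments 1 to 3. XBmRNA2811 had -0.92, -1.41 and -4.43, with 28.8 and 4.12, 5.80 and 23.1, and 0.926 CPM in CBP30 against 11.1 and 41.6, 18.0 and 56.4, and 31.6 and 29.2 CPM in DMSO. The groups overlapped for XBmRNA2811 in experiments 1 and 2. In the other direction, XBmRNA73789 (XBXL10_1g39141) stood at 0.371 and 0.893 CPM in the A486 donors and at 83.5 ± 37.8 CPM (SD, n = 4) in IVF ectoderm, a log2 fold change of -6.43 (SE 0.71, edgeR adjusted p = 0.000572). With so little RNA in the A486 donors, it could pass the expression filter almost only through the IVF libraries. Nothing is read from its direction or p. XBmRNA49762 (XBXL10_1g26627) stood at 1.68 and 2.31 CPM against 47.9 ± 13.3 CPM (SD, n = 4), a log2 fold change of -3.97 (SE 0.33, edgeR adjusted p = 0.000192).

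The sign of the A485 difference in donors is given here beside the difference between A486 endoderm and IVF ectoderm. Of the 24 lower in endoderm, 23 were tested between A485 and A486 donors and 22 of these had a log2 fold change below 0, with a median of -1.33. Of the 14 higher in endoderm, 7 were below 0, with a median of -0.13. Both comparisons share the A486 donors of experiment 1, and the A486 library of experiment 3 with 0.98% of ectoderm-high RNA lies in the second, so the values are given side by side with no test of their difference. Of all transcripts tested between A485 and A486 donors, 51.8% were below 0. The share among all transcripts lower in endoderm was not counted, so nothing particular to the members is read from 22 of 23. These values come from the fit without the block, which moved the median of all members tested from -0.62 to -0.11.

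In ectoderm of NT embryos no member was called between donors treated with an inhibitor and their controls. Of the 56 members nearly absent from ectoderm, only 2 were tested for CBP30 and 3 for A485, so this says little of that class. For CBP30 against DMSO, 90 members were tested and 0 were called by edgeR, with 4 lower and 5 higher at an unadjusted p under 0.05, and by DESeq2 0 were called. The shares over all transcripts at that unadjusted p were 2.47% lower and 2.03% higher. Of all 25668 transcripts tested, 0% were called by edgeR and 13 by DESeq2. The median log2 fold change was 0.09, beside -0.01 over all transcripts, and 36 of 90 members were below 0, against 53.1% of all transcripts. The mean log2(CPM + 0.5) over all 150 was 1.68 ± 0.14 (SD, n = 11) in CBP30 NT, 1.61 ± 0.14 (SD, n = 12) in DMSO NT and 1.68 ± 0.16 (SD, n = 11) in IVF ectoderm. These means include the 56 members nearly absent from ectoderm. The member with the lowest p, XBmRNA26692, had a log2 fold change of -2.02 with an adjusted p of 0.862 by edgeR.

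For A485 against A486 NT ectoderm, 52 members were tested and 0 were called by edgeR, against 0.0339% of all 20667 transcripts. At an unadjusted p under 0.05, 4 were lower and 0 higher, against 6.39% and 3.1% of all transcripts. DESeq2 called 0 members, beside 29 of all 20667 transcripts. The median log2 fold change was 0.04, beside 0.02 over all transcripts. The 91 matched members had a mean log2(CPM + 0.5) of 1.48 ± 0.15 (SD, n = 11) in A485 NT and 1.46 ± 0.10 (SD, n = 13) in A486 NT.

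The class nearly absent from IVF ectoderm was nearly absent from NT ectoderm too. Its mean log2(CPM + 0.5) was -0.64 ± 0.12 (SD, n = 12) in DMSO NT, -0.62 ± 0.07 (SD, n = 11) in CBP30 NT and -0.69 ± 0.08 (SD, n = 11) in IVF ectoderm, where -1 stands for no read. In DMSO donors it was 2.39 ± 1.17 (SD, n = 6). None of the 56 members of this class passed the expression filter for DMSO NT against IVF, so no test bears on them there. XBmRNA4798, at 24.0 to 104 CPM in DMSO donors, stood at 0.30 ± 0.48 CPM (SD, n = 12) in DMSO NT and at 0.25 ± 0.10 CPM (SD, n = 11) in IVF ectoderm.

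Among members expressed in ectoderm, several were lower in NT than in IVF embryos. Between DMSO NT and IVF ectoderm 88 members were tested, and 7 were higher and 24 lower by edgeR, against 12.6% higher and 10.1% lower of all 24916 transcripts tested. Of the 24 lower members, 23 belong to the class present in ectoderm. That class held 70 of the 88 members tested and was cut on the same IVF libraries. Nothing is therefore read from its share or its differences in this comparison. These calls rest largely on experiment 2. Within it 45 of 92 members tested were called, beside 5672 of all 24818 transcripts tested. Within experiment 1, 5 of 89 were called, beside 491 of 24252, and within experiment 3, 2 of 92, beside 1173 of 26610. Without experiment 2 only 4 of 88 were called, beside 2835 of 25285. Over all transcripts too, experiment 2 held the most calls of the 3. The mean log2(CPM + 0.5) of the class present in ectoderm was 0.73 lower in NT than in IVF in experiment 2, beside 0.23 and 0.05 lower in experiments 1 and 3. Between A486 NT and IVF ectoderm of experiment 1 in the A485 set, 4 of 52 members were higher and 17 lower, against 14.8% and 13.5% of all 20627 transcripts. All 17 lower members belong to the class present in ectoderm, which held 38 of the 52 tested.

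XBmRNA32819 (XBXL10_1g17803) had the lowest p among the members lower in DMSO NT ectoderm. In DMSO NT it ran from 0 to 10.6 CPM with a median of 3.49, and in IVF from 8.25 to 54.8 CPM with a median of 12.3, a log2 fold change of -2.43 (SE 0.49, edgeR adjusted p = 0.00115). The ranges overlapped between 8.25 and 10.6 CPM. It was lower in the A485 set too, at 27.2 ± 11.9 CPM (SD, n = 5) in A486 NT and 129 ± 79.4 CPM (SD, n = 4) in IVF, with a log2 fold change of -2.32 (SE 0.43, edgeR adjusted p = 0.00416). XBmRNA2779 ran from 1.91 to 6.77 CPM in DMSO NT and from 3.19 to 13.5 CPM in IVF, a log2 fold change of -1.03 (SE 0.24, edgeR adjusted p = 0.00354), and its ranges overlapped.

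On the other side, XBmRNA25137 (XBXL10_1g13257) had a median of 1.40 CPM in DMSO NT and of 0.55 CPM in IVF, a log2 fold change of 1.50 (SE 0.36, edgeR adjusted p = 0.00504), with ranges of 0.56 to 6.76 and 0.20 to 0.87 CPM. With so little RNA in IVF ectoderm, it could pass the expression filter almost only through the NT libraries. Nothing is read from its direction or p in this comparison. XBmRNA25187 had medians of 17.4 CPM in NT and 9.27 CPM in IVF embryos, with a log2 fold change of 0.82 (SE 0.22, edgeR adjusted p = 0.00881). The ranges of XBmRNA25187 overlapped, at 6.85 to 40.3 CPM in NT and 6.12 to 13.5 CPM in IVF. In the A485 set XBmRNA25137 was not called, with a log2 fold change of -0.80 (SE 0.40, edgeR adjusted p = 0.157), and XBmRNA25187 is not listed in the tables used here. Without experiment 2, the calls in DMSO NT against IVF were lost for XBmRNA25137 (edgeR adjusted p = 0.0693), XBmRNA25187 (0.0697) and XBmRNA2779 (0.116), with the same sign. Over all their alternatives the adjusted p reached 0.331, 0.387 and 0.191, and for XBmRNA32819, lost within experiment 3, it reached 0.269. Without experiment 3, XBmRNA25187 was also lost, at 0.0551.

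XBmRNA74779 (XBXL10_1g39747) was among the 2 lower members with the lowest p in the A485 set. There it stood at 226 to 381 CPM in A486 NT and at 1388 to 6141 CPM in IVF ectoderm of experiment 1, a log2 fold change of -3.18 (SE 0.46, edgeR adjusted p = 0.00141). In the CBP30 set it stood at 333 ± 138 CPM (SD, n = 12) in DMSO NT and at 330 ± 86.8 CPM (SD, n = 11) in IVF and was not called, and a difference between the sets was not tested. XBmRNA22263 (XBXL10_1g11923) was at 56.7 ± 4.70 CPM (SD, n = 5) in A486 NT and at 117 ± 21.6 CPM (SD, n = 4) in IVF, with no overlap and a log2 fold change of -1.10 (SE 0.12, edgeR adjusted p = 0.000368). In the CBP30 set its log2 fold change was -0.28 (SE 0.09, edgeR adjusted p = 0.0327). XBmRNA38751 (XBXL10_1g20949) ran from 0.94 to 23.2 CPM in A486 NT and from 0.14 to 1.40 CPM in IVF, a log2 fold change of 4.18 (SE 1.04, edgeR adjusted p = 0.0153). In the CBP30 set it was not called, with a log2 fold change of 0.24 (SE 0.65, edgeR adjusted p = 0.837). XBmRNA16620 (XBXL10_1g8853) was at 1.32 ± 0.21 CPM (SD, n = 5) against 0.46 ± 0.13 CPM (SD, n = 4), a log2 fold change of 1.44 (SE 0.27, edgeR adjusted p = 0.00417), and it was not called in the CBP30 set either, with 0.56 (SE 0.42, edgeR adjusted p = 0.374). With so little RNA in IVF ectoderm of the A485 set, XBmRNA38751 and XBmRNA16620 could pass the expression filter almost only through the NT libraries. Nothing is read from their direction or p there.

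**Figure D5:**
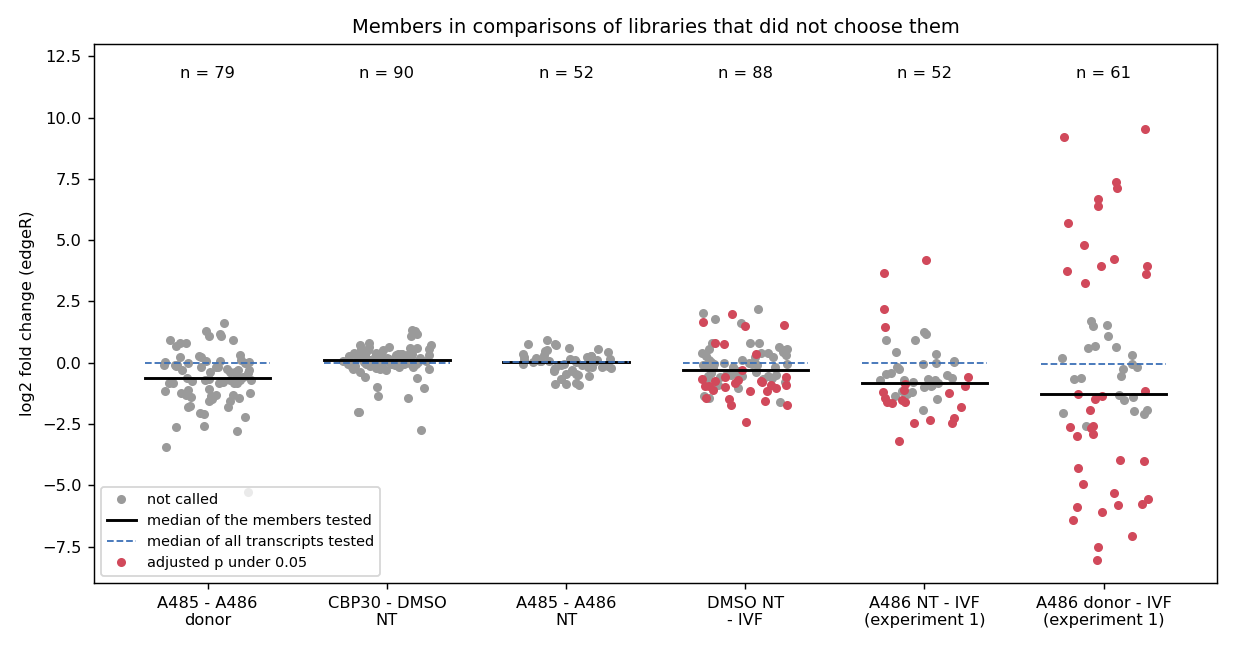
Log2 fold change by edgeR of the members tested (points) in each comparison of libraries that did not choose them, in red at an adjusted p under 0.05. The fits shown are those without the experiment as a block. Black lines are medians of the members and blue dashed lines medians of all transcripts tested. No member is called in the comparisons of inhibitor against control, and 31, 21 and 38 are called in those against IVF ectoderm.

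Target length and identifier were also compared. The members' median target length was 1981 bases, beside 1904 over all transcripts at the DMSO level of the rule. Consecutive identifiers, which neighbouring models may carry, occurred for 10 members. No sequence or genome position of a member was at hand.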

How the data were processed

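Poly(A) RNA was sequenced as paired reads of 50 bp from 85 libraries with a file (45 of the CBP30 set, 40 of the A485 set), out of 115 sample records. Another 22 somite samples and 8 IVF samples of the A485 set were not analysed here, and 4 files tied to no sample record were not used. Per the submitters' processing notes, kallisto 0.48, R 4.3.1 and DESeq2 1.40.2 were used, and the reference is not given in the sources used here. The deposited expected counts are estimated reads per target, which the authors did not scale for depth. Target length in bases is deposited beside them as an other value. There are 72076 targets in the CBP30 set and 44441 in the A485 set. Reads shared by near-identical targets, such as the L and S copies of a gene, may be split between them.

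From these, CPM was computed for description. For tests, expected counts were rounded and fitted over the whole table in R 4.3.3 with edgeR 4.0.16 (filterByExpr, TMM, quasi-likelihood F test, two-sided), using only the groups compared, with Benjamini-Hochberg adjustment and calls at an adjusted p under 0.05. The fits were tested on simulated counts first. DESeq2 1.42.0 was an alternative, beside other filters, the experiment as a block and omissions. Experiment numbers paired libraries: in the 15 checks, libraries of the same experiment deviated together with correlations from 0.28 to 0.77. The main tests left this pairing out, so their p-values ignore it. The blocked fit was kept as an alternative. Counting error covers sampling of reads only.

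The members and lists were chosen with earlier results of these data known. Named transcripts are the 2 members with the lowest mean difference and, for each other comparison, up to 2 higher and 2 lower called members with the lowest p. Others are said to be chosen after their values were seen.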

Additional observations from a re-analysis of the deposited data

Results flagged for a closer look

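Single libraries far from the rest of their group were looked for in the named members, the member scores and the share of counts outside the scaling set, and 20 of 86 groups of values held one. The limit used is one that chance passes in about 1 in 20 independent groups, and these values share libraries and members, so the number is not read against it. No cause was tested.

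In the A485 donors, the first library of experiment 1 was above the other 5 in the mean log2(CPM + 0.5) of the members (2.14), in that of the class present in ectoderm (1.96), in XBmRNA4798 (202 CPM) and in XBmRNA22263 (14.7 CPM). XBmRNA38751 stood apart in the second A485 library of experiment 3 (9.23 CPM) and XBmRNA74779 in the first (8.34 CPM).

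In the A486 donors, the first library of experiment 3, the one with the high sum of ectoderm-high transcripts, stood apart in XBmRNA25137 (1.79 CPM), XBmRNA32819 (5.59 CPM), XBmRNA74779 (29.8 CPM) and XBmRNA73789 (13.2 CPM). The first library of experiment 1 had the highest share of counts outside the scaling set (6.91%).

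In the IVF ectoderm of the A485 set, the first library was above the other 3 in the class present in ectoderm (5.05), in XBmRNA32819 (247 CPM) and in XBmRNA74779 (6141 CPM). XBmRNA2811 was above 0 in the third library only (0.0712 CPM).

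In the CBP30 donors, the library of experiment 3 had 44.3% of its counts outside the scaling set. XBmRNA25187 stood apart in the second library of experiment 1 (5.56 CPM), and XBmRNA32819 (0.666 CPM) and XBmRNA16620 (2.09 CPM) in the first. In the DMSO donors, XBmRNA74779 stood apart in the first library of experiment 1 (254 CPM).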

How the results depend on the processing

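The number of transcripts meeting the limits of the rule, 1192, was 2062 with all targets in the sums, 4009 with a limit of 0, and, in alternatives chosen after seeing the data, 2370 in experiments 1 and 2 only, 426 with the lowest control library of each experiment and 494 with every treated library below every control library. Leaving out single donor libraries gave 963 to 1453. Of the 150 members, 90 stayed among the 150 lowest with a pseudocount of 2, 95 without the second DMSO library of experiment 2 and 103 without the second of experiment 3. Between CBP30 and DMSO donors edgeR called 0 of 23544 transcripts (2718 had an unadjusted p under 0.05), and DESeq2 called 511. Within experiment 1 edgeR called 564, and leaving out single libraries gave 0 to 1 (1 without the first CBP30 library of experiment 1 or the first DMSO library of experiment 3). Between A485 and A486 donors within experiment 2, 1 of 80 members tested was called, beside 2 of all 20574 transcripts. Between A485 and A486 NT ectoderm within experiment 1, 1 of 55 members was called, beside 212 of 21352 transcripts. Leaving out single libraries gave no member called between A485 and A486 donors, with medians from -0.75 to -0.23. The 31 members called between DMSO NT and IVF became 19 with no filter on low counts, 5 within experiment 1, 2 within experiment 3, 4 without experiment 2 and 12 without experiment 3. Over all transcripts, 5671 of 24916 were called there. In the same order this became 4492 of 57074, 491 of 24252, 1173 of 26610, 2835 of 25285 and 3345 of 24222. With the replicate block 30 of 88 members were called between DMSO NT and IVF, beside 7669 of 24916 transcripts. The block changed no count of called members by over 1.5 times. It did move the members' median between A485 and A486 donors from -0.62 to -0.11. Those below 0 went from 59 to 44 of 79. For A486 NT against IVF 21 of 52 members were called, beside 5840 of 20627 transcripts. Of the 6 members of equal target length tested, 2 were called. Without single libraries 14 to 21 members were called, beside 4440 to 5834 of all transcripts. For A486 donors against IVF 38 of 61 members were called, beside 10588 of 22089 transcripts, and 2 of the 6 tested of equal target length. With 10 counts or more required in every library it was 17 of 30, beside 7978 of 16572. Without single IVF libraries it was 36 to 38 of 61, beside 8461 to 10078 of all transcripts. No named member changed direction, and 11 single calls were lost, all in DMSO NT against IVF (XBmRNA25187 in 4 alternatives, XBmRNA25137 and XBmRNA2779 in 3 each, XBmRNA32819 in 1). None of the 56 members nearly absent from ectoderm, a class cut at a low level there, passed the expression filter for DMSO NT against IVF, and depth was not varied. Of the 150 members, 59 have no counterpart in the A485 tables used here.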
